A study of Mus musculus with 15 samples.

Results

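Merging the peak lists of 15 ATAC-seq libraries gave 111393 regions, of which 21176 held a peak in every library. Of these constitutively called regions, 9620 (45.4%) lay within 1 kb of the start or end of a protein-coding gene in mm10, and these boundary regions were followed across the 4 groups of the study. The regions were chosen by the peak calls of these same libraries, so that they were called everywhere is no result. The height of the peaks did not enter the rule, except that it had to stay above the calling threshold, which limits how far a region could fall. ATAC-seq marks open DNA by the insertion of adapters with the Tn5 transposase. The pileup, the number of sequenced fragments that cover the summit of a peak, measures how open the region was. It is given in FPM, fragments at the summit per 1000000 fragments that the library kept after filtering. The cells were mouse CD4+ T cells with the genotype IRF5+/+ (wild type, WT) or IRF5-/- (knockout, KO), either Untreated (0 h) or activated in vitro for 72 h. There were 4 WT-0h libraries, 3 KO-0h libraries (numbered 1, 3 and 4), 4 WT-72h libraries and 4 KO-72h libraries. The sources used here do not give the strain, age or sex of the mice, the activating agent, the deleted part of Irf5, or whether the libraries came from separate animals. If they did not, the p-values cover technical spread only. Untreated cells were profiled at 0 h only, so that activation and time in culture cannot be told apart.

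As background, promoters are the stretches of DNA at which RNA polymerase II starts transcription. Many promoters of housekeeping genes lie in CpG islands, stretches rich in the dinucleotide CG that stay free of DNA methylation and nucleosome-depleted in most cell types. A promoter can therefore be open whether or not its gene responds to a signal, and a peak list that records only presence does not show whether its accessibility went up or down. Naive CD4+ T cells are resting cells. On stimulation through the T cell receptor they grow, take up more nutrients, copy their DNA and divide. Irf5, the gene removed in the knockout, encodes an interferon regulatory factor, a transcription factor best known downstream of Toll-like receptors.

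The promoters of 11 genes are printed because the results turn on them: 6 whose regions were higher at 72 h (Hk2, Mfap3l, Rabl2, Ccr8, Nr4a2 and Tyms), 3 whose regions were lower (Ubash3a, Sit1 and Cd3e), Pgk1, which separated the genotypes, and Irf5. They were chosen after the values were seen. Each sequence gives the 250 bases before the start site from RefSeq (GRCm38.p6, the assembly behind mm10), read 5′ to 3′ on the strand of the gene. Capitals mark letters that match, on either strand, the GC box (GGGCGG), the CCAAT box (CCAAT), the ETS motif (CCGGAAG), the E-box (CACGTG) or the TATA box (TATAAA).
Hk2 (chr6:82774455-82774704, minus strand): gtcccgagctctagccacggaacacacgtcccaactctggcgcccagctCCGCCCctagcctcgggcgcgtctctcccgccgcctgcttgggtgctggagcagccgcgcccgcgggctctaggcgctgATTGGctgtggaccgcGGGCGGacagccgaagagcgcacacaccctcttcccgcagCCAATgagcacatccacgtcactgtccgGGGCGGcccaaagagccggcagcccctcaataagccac
Mfap3l (chr8:60632575-60632824, plus strand): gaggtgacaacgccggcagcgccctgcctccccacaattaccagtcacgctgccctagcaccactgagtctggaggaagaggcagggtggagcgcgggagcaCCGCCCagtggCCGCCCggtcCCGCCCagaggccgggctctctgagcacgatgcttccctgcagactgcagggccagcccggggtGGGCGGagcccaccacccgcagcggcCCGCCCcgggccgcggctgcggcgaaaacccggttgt
Rabl2 (chr15:89591924-89592173, minus strand): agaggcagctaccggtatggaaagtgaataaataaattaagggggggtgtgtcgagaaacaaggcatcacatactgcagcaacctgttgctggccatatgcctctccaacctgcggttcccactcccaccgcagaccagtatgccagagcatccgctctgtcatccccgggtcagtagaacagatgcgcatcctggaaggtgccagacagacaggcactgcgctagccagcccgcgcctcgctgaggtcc
Ccr8 (chr9:120091883-120092132, plus strand): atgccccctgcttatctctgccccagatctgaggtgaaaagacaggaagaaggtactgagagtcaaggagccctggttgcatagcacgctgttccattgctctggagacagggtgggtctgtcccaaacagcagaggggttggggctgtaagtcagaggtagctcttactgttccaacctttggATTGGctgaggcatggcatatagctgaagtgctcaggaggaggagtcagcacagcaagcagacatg
Nr4a2 (chr2:57124004-57124253, minus strand): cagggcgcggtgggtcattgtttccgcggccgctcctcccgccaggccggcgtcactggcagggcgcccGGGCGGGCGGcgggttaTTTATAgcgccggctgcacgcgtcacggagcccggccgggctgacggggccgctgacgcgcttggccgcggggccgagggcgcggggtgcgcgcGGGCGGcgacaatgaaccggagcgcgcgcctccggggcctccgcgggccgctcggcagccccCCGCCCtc
Tyms (chr5:30073626-30073875, minus strand): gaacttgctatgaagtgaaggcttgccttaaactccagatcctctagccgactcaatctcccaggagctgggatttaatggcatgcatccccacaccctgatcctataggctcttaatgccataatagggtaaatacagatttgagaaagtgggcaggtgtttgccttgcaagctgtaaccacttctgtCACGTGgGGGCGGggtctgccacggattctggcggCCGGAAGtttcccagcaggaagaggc
Ubash3a (chr17:31207816-31208065, plus strand): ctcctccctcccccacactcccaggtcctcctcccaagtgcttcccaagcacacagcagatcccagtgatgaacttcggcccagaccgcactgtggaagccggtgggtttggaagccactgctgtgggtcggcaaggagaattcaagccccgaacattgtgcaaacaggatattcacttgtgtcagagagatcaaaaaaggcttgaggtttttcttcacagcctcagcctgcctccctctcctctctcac
Sit1 (chr4:43483710-43483959, minus strand): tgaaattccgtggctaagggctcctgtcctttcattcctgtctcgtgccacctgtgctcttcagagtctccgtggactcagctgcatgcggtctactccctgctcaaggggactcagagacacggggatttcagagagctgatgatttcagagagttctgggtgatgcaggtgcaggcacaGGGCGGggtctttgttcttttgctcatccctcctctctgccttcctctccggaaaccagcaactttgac
Cd3e (chr9:45009612-45009861, minus strand): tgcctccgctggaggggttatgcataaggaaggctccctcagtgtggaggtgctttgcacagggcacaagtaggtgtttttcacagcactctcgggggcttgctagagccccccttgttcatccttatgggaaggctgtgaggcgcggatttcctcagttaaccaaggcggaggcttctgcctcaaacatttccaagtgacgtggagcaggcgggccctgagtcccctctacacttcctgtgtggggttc
Pgk1 (chrX:106186850-106187099, plus strand): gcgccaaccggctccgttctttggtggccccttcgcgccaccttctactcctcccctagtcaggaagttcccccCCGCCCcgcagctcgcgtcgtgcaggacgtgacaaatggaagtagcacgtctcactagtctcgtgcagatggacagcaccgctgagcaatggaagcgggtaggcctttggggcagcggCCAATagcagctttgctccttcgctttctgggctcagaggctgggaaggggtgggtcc
Irf5 (chr6:29526375-29526624, plus strand): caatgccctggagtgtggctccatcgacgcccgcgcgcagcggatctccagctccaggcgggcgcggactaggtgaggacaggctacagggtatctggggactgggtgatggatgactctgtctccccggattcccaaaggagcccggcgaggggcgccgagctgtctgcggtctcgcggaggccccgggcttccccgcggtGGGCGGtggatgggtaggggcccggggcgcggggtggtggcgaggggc
The median summit of the deposited peaks lay 10 bp from the start site at Rabl2 and 167 bp from it at Ccr8, the extremes of these 11. The GC box was found 5 times before Mfap3l, 4 times before Nr4a2 and 3 times before Hk2. Hk2, Ccr8 and Pgk1 held CCAAT boxes, Nr4a2 held the only TATA box, and Tyms held the only ETS match and E-box. None of the searched motifs was found before Rabl2, Ubash3a and Cd3e, which says only that these letters are not in these windows. The ratio of observed to expected CG dinucleotides over the start site window was 1.04 at Nr4a2, 0.89 at Irf5 and 0.76 at Hk2, against 0.0947 at Ccr8, 0.28 at Ubash3a and 0.33 at Cd3e. The promoters of the 3 regions that were lower were all CG-poor, with 0.36 at Sit1, while those of the regions that were higher ranged from 0.0947 to 1.04. These few picked promoters do not stand for the whole set. Over all boundary regions the median ratio was 0.815 for those lower at 72 h in both genotypes and 0.748 for those higher.

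Each library kept between 20.5 M and 29 M fragments after duplicates were removed, and the median boundary region had between 64 and 190 fragments at its summit. The share of duplicates was 0.17 to 0.29 at 0 h and 0.14 to 0.17 at 72 h, and the fragment length given in the headers ranged from 140 to 182 bp. Of 12 T cell marker genes, 11 had a peak near a boundary in all 15 libraries, and Cd4 had one in 14. Of 10 B cell markers, 3 had a peak in all 15 (Cd79a, Ebf1 and Cr2) and 5 in none, among them Cd79b, Ms4a1, Pax5 and Cd22. Of 10 myeloid markers, 6 had no peak in any library, among them Lyz2, Csf1r and Adgre1. Cebpa and Spi1 had one in all 15, Cd14 in 14 and Itgam in 10. Of 9 CD8 and NK markers, 4 had none, among them Cd8a and Ncr1. Cd8b1 had a peak in all 15, Eomes in 14, Prf1 and Gzma in 12 each and Klrk1 in 8. KO-0h replicate 3 stood apart, with 29994 peaks, the fewest of all libraries, and a median pileup of the boundary regions of 2.60 FPM against 5.61 and 6.58 in the other KO-0h libraries. The total counts of regions called in knockout are given with and without it. The gene lists, the calls shared by both genotypes and most named values in knockout include it.

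Among the 7773 boundary regions with a known strand at the nearest boundary, 7363 (94.7%) were nearest to a gene start and 410 to a gene end. The boundary lay inside the region for 8607 of the 9620, and 1803 (18.7%) had boundaries of more than 1 gene within 1 kb. The median width was 1334 bp. A start site was in the promoter table for 7461 regions, and in 85.1% of these the median summit lay within 250 bp of it. The median GC content of these promoters was 62% and their median CG ratio 0.80, against 52.7% and 0.38 over all 32851 promoters of the table. The GC box was found in 70.8% of the 300-base windows around their starts against 35.7% of all promoters, the ETS motif in 20.7% against 8.9%, and the CCAAT box in 40.0% against 37.4%. The TATA box was less frequent, with 6.0% against 13.6%. These shares are descriptions, since CG-rich windows hold more matches to CG-rich letters.

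The boundary regions with the highest mean pileup were those at Hjurp (23.2 FPM), Sap130 (23.0), Pja2 (18.9), Qdpr (18.8) and Zbtb20 (18.3). Hjurp encodes the chaperone that deposits the centromeric histone CENP-A, Sap130 a subunit of the Sin3 histone deacetylase complex, Pja2 an E3 ubiquitin ligase, Qdpr an enzyme that regenerates tetrahydrobiopterin and Zbtb20 a zinc finger repressor. On activation in wild type these 5 had log2 changes between −0.20 and −0.01 relative to the median region. The region whose FPM varied least over the 15 libraries lay 491 bp beyond the end of Lars2 (chr9:123461798-123462184), which encodes the mitochondrial leucyl-tRNA synthetase. Its pileup was between 11.9 and 19.8 FPM (SD of log2 0.23), with means of 18.1 in WT-0h, 16.6 in KO-0h, 17.5 in WT-72h and 14.9 in KO-72h. Relative to the median region it rose by 0.73 in wild type. The next in order of constancy were low regions at Per1, Drd1, Mesp1 and Ffar1, with means between 0.713 and 1.32 FPM. The deposited sources used here do not say whether regions of anomalous coverage were removed.

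**Figure D1:**
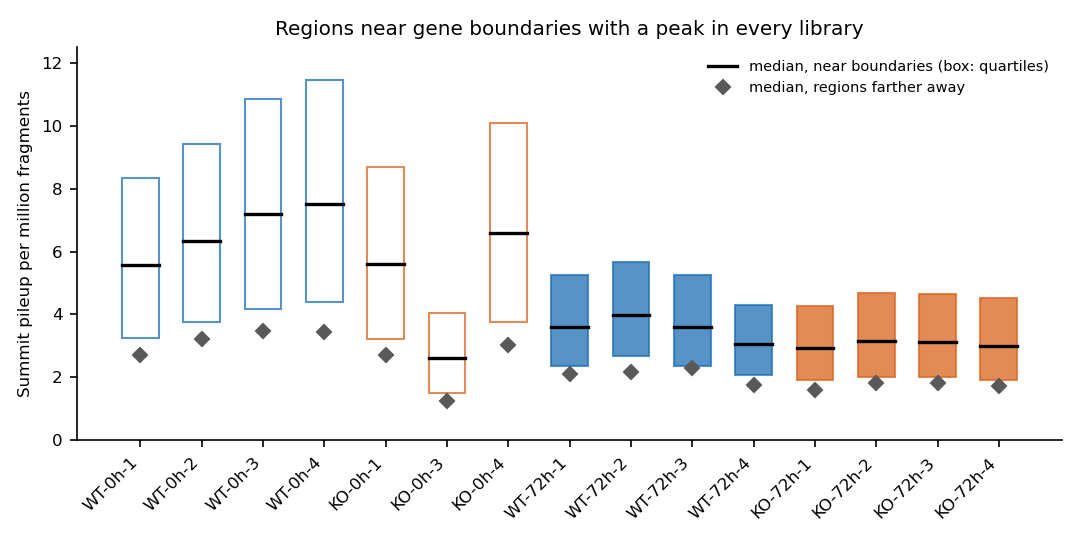
Summit pileup of the 9620 boundary regions in each of the 15 libraries (vertical axis, FPM): boxes span the quartiles, black lines mark the medians, and diamonds the median of the 11556 constitutive regions farther from genes. Open boxes are 0 h and filled boxes 72 h, and the medians are 5.58 to 7.52 in WT-0h, 2.60 to 6.58 in KO-0h, 3.05 to 3.99 in WT-72h and 2.94 to 3.15 in KO-72h.

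The first comparison asked which of these regions gained or lost signal when the cells were activated. The median pileup of the boundary regions in WT-0h was 5.58, 6.34, 7.201 and 7.52 FPM in replicates 1 to 4, and in WT-72h it was 3.61, 3.99, 3.599 and 3.05. Every WT-72h library was below every WT-0h library. In knockout it was 5.61, 2.60 and 6.58 at 0 h in replicates 1, 3 and 4, and 2.94, 3.15, 3.12 and 2.99 at 72 h, so that the groups overlapped through KO-0h replicate 3. Constitutive regions farther from genes moved the same way: the boundary regions were 1.98 to 2.18 times as high as those at the median in WT-0h, and 1.57 to 1.83 times as high in WT-72h.

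In FPM, limma called 7308 boundary regions lower and 187 higher at 72 h in wild type, at an adjusted p under 0.05 over all 21176 constitutive regions. The shares called over all of these were 65.2% lower and 5.14% higher, against 76.0% and 1.94% of the boundary regions. The median change was −0.88 on the log2 scale (−0.81 over all constitutive regions). In knockout 4172 were called lower (39.7% over all) and 322 higher (7.57% over all), with a median of −0.58. Without KO-0h replicate 3 the knockout counts were 8182 lower and 234 higher, and the wild-type count of higher regions, which shares the estimate of the spread, was 309. Without KO-0h replicate 1 or 4 the knockout counted 1613 and 1534 lower.

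The libraries had 29994 to 47790 peaks at 0 h and 55519 to 69086 at 72 h. FPM measures a share of the fragments of a library, and the part of the added peaks in the falls was not tested. Because most regions moved down together in FPM, each change is also given relative to the median region. For this the log2 values of a library were centred on its median over the 21176 constitutive regions. On this scale 2011 boundary regions were higher (29.8% over all) and 3524 lower (33.3% over all) in wild type, or 20.9% and 36.6% of them, and 2082 were higher (29.3% over all) and 3461 lower (32.9% over all) in knockout. On the authors' fold enrichment, centred in the same way, 963 were higher and 1071 lower in wild type, and 882 and 1108 in knockout. With the distributions of the libraries made equal by quantile normalization, the counts were 2313 higher (27.8%) and 2519 lower (29.9%) in wild type, and 2283 (27.1%) and 2501 (29.6%) in knockout, with the share over all constitutive regions in brackets. Without KO-0h replicate 3 the relative counts in knockout were 1856 higher and 3188 lower. In what follows, higher and lower without further words mean called on the relative scale.

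Most regions called in one genotype were also called in the other. Of the regions higher in wild type, 1656 were also higher in knockout, 82.3% of the wild-type and 79.5% of the knockout list, and 2792 were lower in both, 79.2% and 80.7%. Over all constitutive regions 24.9% were higher in both genotypes, 27.5% lower in both and 27.2% called in neither. Among the boundary regions 2991 were called in neither. A single region was called in opposite directions. The 2 genotypes share no library, but their fits share the estimate of the spread. No boundary region was called for a difference of the activation change between the genotypes, on either scale (0% and 0.00472% over all constitutive regions). At an unadjusted p under 0.05 there were 94 in FPM and 770 on the relative scale. Quantile normalization called 0.00472% of all constitutive regions for this difference.

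**Figure D2:**
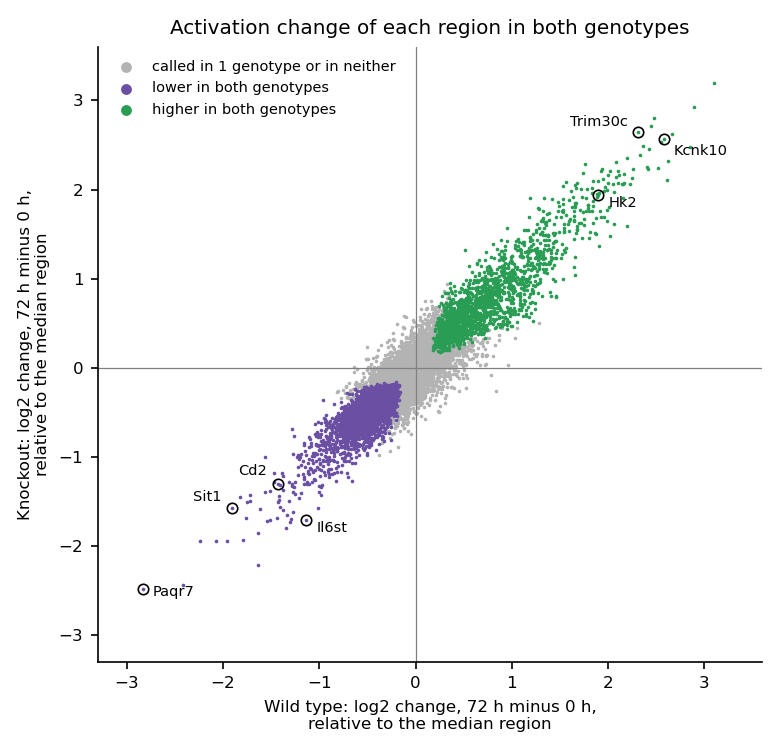
Log2 change of each of the 9620 boundary regions, 72 h minus 0 h relative to the median region, in wild type (horizontal) and knockout (vertical), with the 1656 regions higher in both genotypes in green, the 2792 lower in both in purple and the others in grey. Points lie along the diagonal, with Paqr7 (−2.84 and −2.49) at the lower left and Kcnk10 (2.58 and 2.57) at the upper right.

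The relative change depended on how high a region was. When the boundary regions were sorted by their mean level into 5 bands of 1924, the median change in wild type went from 0.30 in the lowest band (median 1.78 FPM) to −0.22 in the highest (8.97 FPM), and in knockout from 0.25 to −0.20. In the lowest band 848 regions were higher and 223 lower, in the highest 174 and 1078. After quantile normalization the medians in wild type were 0.04 in the lowest and −0.02 in the highest band, with 524 higher and 391 lower against 492 and 499. Level and share of higher calls therefore moved together on the relative scale, and the part of the level in the counts that follow was not tested.

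Regions nearest to a gene end were lower in level than those at starts, with a median of 2.41 against 4.77 FPM. Of the 410 end regions 36.1% were higher and 25.4% lower in wild type, of the 7363 start regions 19.6% and 37.3%. After quantile normalization the shares were 28.0% and 28.3% for ends and 24.0% and 25.9% for starts. Regions with a CG-poor promoter (ratio under 0.6, 1422 regions) were higher in 27.5% and lower in 31.8%. Those with a ratio of at least 0.6 (6039 regions) were higher in 17.7% and lower in 39.0%. After quantile normalization the shares were 27.2% and 26.2% against 23.1% and 26.0%. Among regions with a start site in the table, the ETS motif was found in 14.5% of those higher in both genotypes, 20.5% of those lower in both and 22.8% of those called in neither. The YY1 motif (AAGATGGCG) was found in 1.3%, 4.0% and 4.0%, the cAMP response element (TGACGTCA) in 2.0%, 5.2% and 3.6%, and the CCAAT box in 34.9%, 45.1% and 38.9%. The AP-1 motif (TGANTCA) was in 4.4%, 3.7% and 4.2%. The 3 sets differ in level, with median pileups of 2.77, 6.05 and 4.06 FPM, and the shares have no test.

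Among the regions that gained most were those at Mfap3l, Kcnk10 and Rabl2. All 187 regions higher in FPM in wild type were also higher relative to the median region, 170 of them with no overlap between the WT-0h and WT-72h libraries. Of all constitutive regions 5.14% were called higher, and 5.56% had every WT-72h library above every WT-0h library. The rule for naming took, among regions with no overlap in that genotype, those with the largest change whose summits lay within 500 bp of each other. That the groups of that genotype are separate at these regions, and at the losses named the same way, is therefore no result. The region across the start of Mfap3l (chr8:60632337-60633456), which encodes a membrane protein of the microfibril-associated family, was one of them. It had 1.205, 1.48, 2.02 and 1.82 FPM in WT-0h, 6.32, 5.62, 5.78 and 4.43 in WT-72h, 1.69, 0.574 and 1.997 in KO-0h and 4.23, 5.21, 5.51 and 6.08 in KO-72h. Every activated library was at least 4.23 and every untreated library at most 2.02, in both genotypes. The rise was 3.43-fold in FPM and 5.88-fold relative to the median region in wild type (log2 2.55 ± 0.13 SE, adjusted p = 4.30e-22), and the relative rise in knockout was 5.77-fold.

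The region at the start of Kcnk10 (chr12:98577845-98578419), a background potassium channel gene, went from 1.49 ± 0.27 to 5.16 ± 0.69 FPM in wild type (SD, n = 4 each), and that of Rabl2 (chr15:89591234-89592381), which encodes a Rab-like GTPase of cilia, from 1.204 ± 0.244 to 3.88 ± 0.542.

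Trim30c, of the TRIM30 family of ubiquitin ligases, was among the largest gains of the knockout. Its start region (chr7:104400275-104401547) had 1.73, 1.03 and 2.09 FPM in KO-0h and 7.08, 7.23, 7.68 and 6.22 in KO-72h, a relative rise of 6.26-fold (log2 2.65 ± 0.12 SE, adjusted p = 4.05e-24). In wild type it had 2.14, 2.41, 3.32 and 2.97 at 0 h and 8.76, 7.48, 8.997 and 6.14 at 72 h, a relative rise of 4.97-fold. The other named gains were at Pkhd1l1, Olfr525, Fhad1, Secisbp2l, Marchf8 and Farp1 in wild type, with log2 changes between 2.52 and 2.89, and at Endod1 and Usp31 besides in knockout, with 2.71 and 2.49. Marchf8 encodes a membrane-bound ubiquitin ligase, Farp1 a guanine nucleotide exchange factor and Usp31 a deubiquitinase. The regions at Secisbp2l and Usp31 lay at gene ends.

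The largest loss was at Paqr7, a membrane progestin receptor gene, in a region 972 bp from its start (chr4:134494843-134495789). It had 8.48, 9.65, 11.2 and 11.2 FPM in WT-0h and 0.689, 1.38, 0.957 and 0.505 in WT-72h. In knockout it had 8.72, 4.55 and 10.7 at 0 h and 0.623, 1.05, 1.02 and 1.31 at 72 h. The lowest untreated library was at 4.55 and the highest activated one at 1.38. The fall was 12.2-fold in FPM and 7.14-fold relative to the median region in wild type (log2 −2.84 ± 0.16 SE, adjusted p = 4.43e-20). Separate groups were common among losses in FPM. Of all constitutive regions 66.7% had every WT-72h library below every WT-0h library, and 19.6% did so in knockout.

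Tnfaip3, the gene of the ubiquitin-editing enzyme A20 that limits NF-kB signalling, had regions at both ends. The region at its end (chr10:18999014-19002633) had 4.73, 4.21, 6.07 and 6.41 FPM in WT-0h and 0.608, 0.617, 0.766 and 0.622 in WT-72h, with a relative change of −2.24 ± 0.17 (SE) in wild type and −1.95 ± 0.18 in knockout. On the authors' fold enrichment, which divides by the local background, its change in wild type turned to 0.12. The region at its start was higher and changed less, from 13.2 to 3.51 FPM in wild type, with a relative change of −1.13. Sit1 encodes an adaptor that dampens T cell receptor signals. Its start region (chr4:43481999-43484181) had 5.80, 5.38, 7.56 and 7.402 FPM in WT-0h and 1.14, 1.09, 0.881 and 0.933 in WT-72h, and in knockout 5.26, 2.79 and 6.53 at 0 h and 1.07, 1.01, 1.02 and 1.40 at 72 h. The groups were separate in both genotypes, and the relative change was −1.91 in wild type and −1.57 in knockout.

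Ubash3a encodes a phosphatase-like protein that also dampens T cell receptor signalling. Its start region (chr17:31207411-31208288) had 5.67, 5.86, 5.74 and 5.86 FPM in WT-0h and 1.22, 1.02, 0.957 and 0.933 in WT-72h, a relative fall of 3.29-fold (log2 −1.72 ± 0.15 SE, adjusted p = 6.12e-14). In knockout it had 4.13, 2.49 and 4.58 at 0 h and 0.979, 0.807, 0.854 and 1.08 at 72 h. Cst7, the gene of the protease inhibitor cystatin F, had a region at its end (chr2:150577793-150579265) that went from 6.95 ± 0.77 to 1.23 ± 0.19 FPM in wild type (SD, n = 4 each) and from 5.39 ± 2.06 (SD, n = 3) to 1.37 ± 0.23 (SD, n = 4) in knockout. The other named losses in wild type were at Tha1, Gm5148, Cabp1, Lysmd1 with Scnm1, and Gtf2i, with relative changes between −2.07 and −1.64. The knockout named Dgkg, Lcn4, Dph5, Il6st and Rprd2 besides, between −1.80 and −1.70, and the regions of these 5 lay at gene ends. A region at Zeb1, a zinc finger repressor gene, changed as much (−2.41 in wild type and −2.44 in knockout), but its summits were spread over 2603 bp, so that the highest points compared were not at the same place. It falls outside the rule and was picked after its values were seen.

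**Figure D3:**
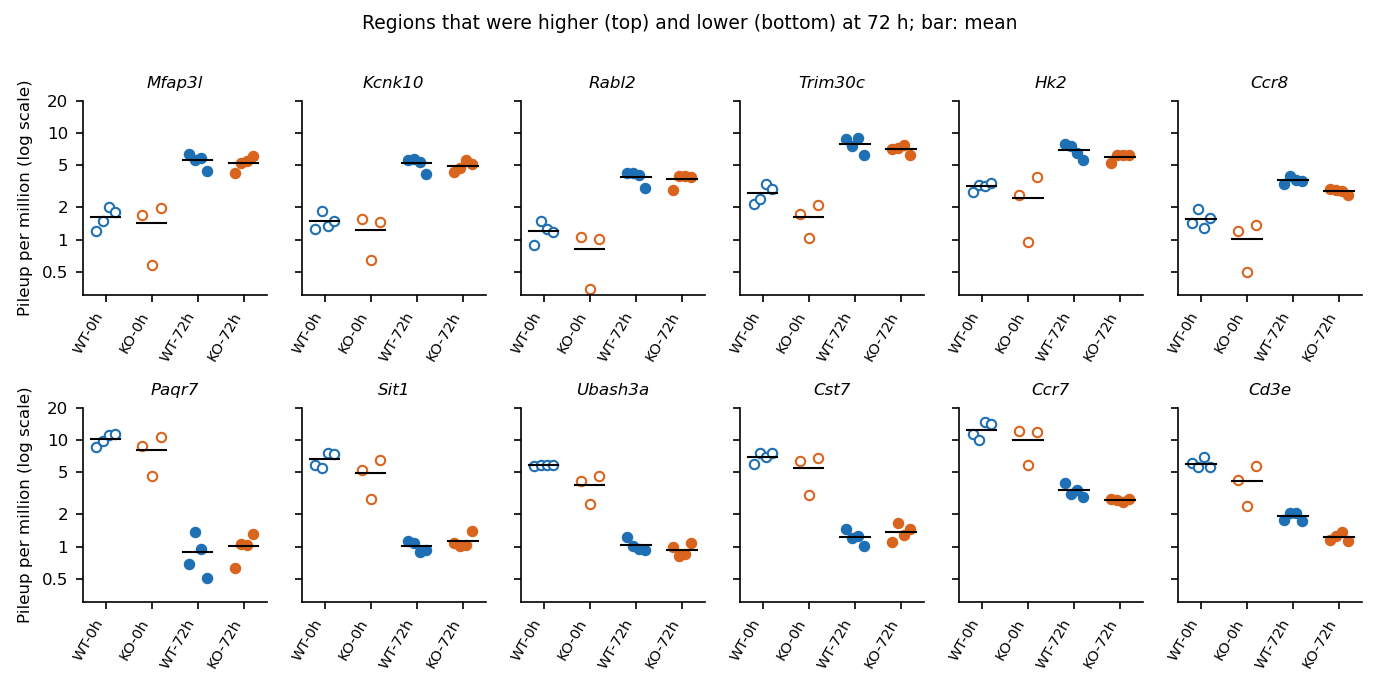
Pileup in FPM (log axis) in every library at 6 regions that were higher at 72 h (top) and 6 that were lower (bottom), with open points for 0 h, filled points for 72 h, blue for wild type, orange for knockout and bars for group means. At Mfap3l all activated libraries lie at 4.23 or above and all untreated ones at 2.02 or below, and at Paqr7 all activated libraries lie at 1.38 or below and all untreated ones at 4.55 or above.

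In FPM, every list with at least 5 regions had more lower than higher calls in wild type, so that the lists are described on the relative scale. The counts of each list stand against 20.9% higher and 36.6% lower of all boundary regions in wild type. In knockout these shares were 21.6% and 36.0%. Over all constitutive regions they were 29.8% and 33.3% in wild type. Of 34 regions at 27 T cell identity genes, 22 were lower and 0 higher in wild type, and 20 lower and 0 higher in knockout. The median changes were −0.50 and −0.38, against −0.11 for all boundary regions in both genotypes. After quantile normalization 20 were lower and 0 higher in each genotype. Cd3e encodes the epsilon chain of the T cell receptor complex. Its start region (chr9:45009034-45010179) had 6.02, 5.52, 6.84 and 5.54 FPM in WT-0h, 1.78, 2.07, 2.07 and 1.75 in WT-72h, 4.24, 2.37 and 5.65 in KO-0h and 1.16, 1.25, 1.37 and 1.12 in KO-72h. Relative to the median region it fell 1.82-fold in wild type and 2.28-fold in knockout. Cd2, an adhesion receptor gene, had 8.83, 9.17, 11.4 and 11.0 FPM in WT-0h and 2.63, 2.18, 2.37 and 1.63 in WT-72h, a relative fall of 2.70-fold. Zap70 and Lat, which carry the receptor signal inward, were lower (−0.88 and −0.55 in wild type). Lck and Bcl11b were not called, with −0.05 and 0.09. Among markers of other cell types, Blk had a peak in 1 of 7 libraries at 0 h and 7 of 8 at 72 h, Fcer2a in 1 of 7 and 6 of 8, and Klrk1 in 0 of 7 and 8 of 8. Itgam went the other way, with 7 of 7 and 3 of 8. The part of other cells in the lower T cell regions was not tested. In bulk libraries a smaller share of a cell type and less accessibility per cell cannot be told apart.

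Of 32 regions at 27 naive and quiescence genes, 24 were lower and 0 higher in wild type, and 21 and 0 in knockout, with medians of −0.45 and −0.55. Quantile normalization gave 21 lower and 4 higher in wild type. Ccr7 encodes the receptor that guides naive T cells into lymph nodes. Its region (chr11:99154514-99155580) had 11.2, 9.90, 14.6 and 13.9 FPM in WT-0h and 3.97, 3.12, 3.41 and 2.92 in WT-72h, and in knockout 12.0, 5.81 and 11.8 at 0 h and 2.80, 2.74, 2.60 and 2.81 at 72 h. The groups did not overlap, as at 66.7% of all constitutive regions in wild type and 19.6% in knockout. The relative fall at Ccr7 was 2.15-fold in wild type and 2.48-fold in knockout. Bach2, a repressor that keeps lymphocytes resting, changed by −1.07 and −1.03. At Il6st, the gene of the shared signalling receptor gp130, a region 654 bp from the end (chr13:112507514-112508685) changed by −1.14 in wild type and −1.70 in knockout. Lef1 and Il7r were not called, with 0.17 and 0.22 in wild type.

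Genes induced by the T cell receptor were lower more often than higher at 72 h. Of 47 regions at 40 genes, 24 were lower (51.1%) and 8 higher (17.0%) in wild type, and 26 and 8 in knockout. After quantile normalization 20 were lower and 7 higher in wild type. Batf, an AP-1 family factor of activated T cells, was lower (−1.09 and −1.14), as was Egr2, a zinc finger factor (−0.98 and −0.97). Nr4a2, an orphan nuclear receptor gene, was higher: its region (chr2:57123178-57124610) had 1.56, 1.41, 1.46 and 2.45 FPM in WT-0h, 3.04, 3.45, 3.06 and 2.84 in WT-72h, 1.31, 0.459 and 1.46 in KO-0h and 2.98, 2.70, 2.48 and 3.41 in KO-72h. Its rise passed on both scales, 1.84-fold in FPM (adjusted p = 0.00281) and 3.16-fold relative in wild type. Myc and Irf4 were not called, with 0.00 and −0.19 in wild type.

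STAT and SOCS genes, which transmit and damp cytokine signals, had 22 regions, of which 6 were higher and 6 lower in wild type, and 6 and 7 in knockout. Quantile normalization gave 9 higher and 3 lower in wild type, and FPM 1 and 16. Socs2 had 1.83, 2.17, 1.94 and 2.38 FPM in WT-0h and 3.41, 4.61, 4.13 and 3.23 in WT-72h, a relative rise of 3.15-fold, with 3.49-fold in knockout. Socs3 moved in opposite directions at its ends: the start region changed by 0.87 and the end region by −1.13 in wild type, and by 0.82 and −1.30 in knockout. Of 9 regions at the interferon regulatory factor genes, 2 were higher and 4 lower in wild type, and 1 and 4 in knockout. Irf1 (−0.51), Irf7 (−0.41) and the promoter that Irf3 shares with Bcl2l12 (−0.49) were lower in wild type, and the one that Irf9 shares with Rnf31 was higher (0.37).

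Interferon-stimulated genes had slightly more higher than lower regions on the relative scale. Of 40 regions at 38 genes, 11 were higher and 9 lower in wild type, and 15 and 8 in knockout, with medians of 0.10 and 0.08. The wild-type share of higher regions was 27.5%, against 20.9% of all boundary regions and 29.8% of all constitutive regions. That of lower regions was 22.5%, against 36.6% and 33.3%. After quantile normalization 13 were higher and 6 lower in wild type, with a median of 0.02. The median level of the list was 3.62 FPM, against 4.54 for all boundary regions. In FPM the direction of the counts turned, with 3 higher and 25 lower in wild type. Ifit1 encodes an RNA-binding antiviral protein. The region 115 bp from its end (chr19:34650124-34650962) had 0.714, 0.759, 1.09 and 0.871 FPM in WT-0h, 1.62, 2.47, 2.83 and 1.79 in WT-72h, 0.741, 0.421 and 0.682 in KO-0h and 1.87, 1.90, 1.92 and 1.59 in KO-72h. All activated libraries were above all untreated ones, and the rise was 4.29-fold relative and 2.50-fold in FPM in wild type. A region at the end of Gbp7, a guanylate-binding protein gene, changed by 1.53 and 1.90, and the start of Xaf1, an apoptosis-promoting gene, by 1.34 and 1.63. Oasl1 was lower (−1.38 and −1.60).

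Among lists of protein synthesis, the cytosolic ribosomal proteins had the highest share of lower regions, 60.2%, against 36.6% of all boundary regions, and the mitochondrial ribosomal proteins the lowest, 35.4%. Of 83 regions at 77 cytosolic ribosomal protein genes, 50 were lower and 4 higher in wild type, and 49 and 5 in knockout, with medians of −0.25 and −0.32. After quantile normalization 32 were lower and 7 higher in wild type. Rps23, for a protein of the small subunit, went from 9.99 ± 1.14 to 3.31 ± 0.45 FPM in wild type (SD, n = 4 each), a relative change of −0.82. Of 72 regions at ribosome biogenesis genes, 31 were lower and 8 higher in wild type, among them Nop58, a nucleolar protein gene, with −1.05. Of 79 regions at mitochondrial ribosomal protein genes 28 were lower and 11 higher, and of 51 at translation initiation and elongation genes 24 and 2 in wild type and 30 and 3 in knockout. After quantile normalization the last list had 9 lower and 9 higher in wild type. The ribosome biogenesis list then had 21 lower and 14 higher, and the mitochondrial ribosomal protein list 19 and 16. Of 24 regions at aminoacyl-tRNA synthetase genes 11 were lower and 5 higher, with 8 and 8 after quantile normalization. Mrpl3 stood against its list, with 1.11 and 1.25.

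Lists of protein quality control and gene expression machinery ranged from 35.9% lower for the proteasome to 60.7% for splicing factors in wild type. Of 48 regions at chaperone genes 29 were lower and 2 higher in wild type, and 28 and 3 in knockout, with Dnaja2 at −0.81. Of 39 regions at proteasome genes 14 were lower and 6 higher, which quantile normalization turned to 7 lower and 9 higher. Of 46 at lysosome and autophagy genes 21 were lower and 7 higher, with the autophagy receptor gene Sqstm1 at −1.03. Of 61 at splicing factor genes 37 were lower and 6 higher in wild type, and 35 and 6 in knockout, with a median of −0.28 and −0.30. Hnrnpf, an RNA-binding protein gene, was at −0.99. A region between the ends of Hnrnpa2b1 and Nfe2l3 (chr6:51458927-51460702) was higher, with 1.79 and 1.83, while the start of Hnrnpa2b1 was lower, with −0.45 and −0.63. Of 52 regions at chromatin regulator genes 25 were lower (48.1%) and 4 higher (7.69%).

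Cell division genes did not share a direction. Of 56 regions at DNA replication genes 14 were higher and 19 lower in wild type, 17 and 14 in knockout, and 22 and 8 in wild type after quantile normalization, while in FPM 0 were higher and 41 lower. Tyms encodes thymidylate synthase, which makes the thymidine nucleotide for DNA. Its start region (chr5:30072560-30073923) had 1.34, 1.28, 1.33 and 1.504 FPM in WT-0h and 1.78, 2.14, 1.76 and 1.94 in WT-72h, a relative change of 1.26 ± 0.18 (SE), but in FPM it did not pass in wild type (adjusted p = 0.104). Of 61 regions at mitosis genes 8 were higher (13.1%) and 20 lower (32.8%) in wild type, against 18 and 9 after quantile normalization. The kinase gene Plk1 and the cell cycle factor gene Mybl2 were higher (0.85 and 0.77), and Cenpa, for the centromeric histone, was lower (−1.05). Of 38 regions at cell cycle regulator genes 8 were higher (21.1%) and 13 lower (34.2%), which quantile normalization turned to 12 higher and 6 lower. The CDK inhibitor gene Cdkn1b was lower, with −0.81 and −0.93.

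Of 25 regions at glycolysis genes 6 were higher and 8 lower in wild type, and 7 and 8 in knockout, against 10 and 6 in wild type after quantile normalization. The relative shares in wild type were 24.0% higher and 32.0% lower, against 20.9% and 36.6% of all boundary regions. Hk2 encodes hexokinase 2, which commits glucose to glycolysis. Its start region (chr6:82773234-82775824) had 2.77, 3.24, 3.20 and 3.40 FPM in WT-0h, 7.95, 7.48, 6.51 and 5.599 in WT-72h, 2.61, 0.956 and 3.85 in KO-0h and 5.21, 6.14, 6.15 and 6.22 in KO-72h. The lowest activated library, at 5.21, was above the highest untreated one, at 3.85. The rise was 2.17-fold in FPM and 3.72-fold relative in wild type (log2 1.89 ± 0.11 SE, adjusted p = 8.69e-20). Pfkfb3, which makes the activator of phosphofructokinase, was lower (−0.81 and −1.10). Of 33 regions at amino acid transport and metabolism genes 7 were higher (21.2%) and 14 lower (42.4%), against 12 and 9 after quantile normalization. Asns, for asparagine synthetase, was higher by 1.32 and 1.53, although in FPM it missed the threshold in wild type (adjusted p = 0.0672). Of 25 regions at mTORC1 pathway genes 1 was higher and 11 lower (44.0%), and of 33 at sterol and lipid synthesis genes 5 and 11 (33.3% lower). Of 73 at nuclear oxidative phosphorylation genes 8 were higher and 26 lower (35.6% lower, against 36.6% of all boundary regions). Quantile normalization gave 7 higher and 4 lower for the sterol and lipid list, 3 and 7 for mTORC1 and 14 and 18 for oxidative phosphorylation. The sterol exporter gene Abcg1 was lower, with −1.28 and −1.33.

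Of 25 regions at apoptosis and survival genes 4 were higher (16.0%) and 8 lower (32.0%) in wild type. Of 29 at adhesion and migration genes 6 were higher (20.7%) and 12 lower (41.4%). Over all boundary regions the shares were 20.9% and 36.6%. Quantile normalization gave 6 higher and 6 lower for the first list, and 5 and 13 for the second. Ccr8, a chemokine receptor gene, was higher: its start region (chr9:120090538-120092516) had 1.43, 1.93, 1.29 and 1.58 FPM in WT-0h, 3.32, 3.96, 3.64 and 3.54 in WT-72h, 1.2, 0.497 and 1.36 in KO-0h and 2.98, 2.91, 2.86 and 2.62 in KO-72h. The groups were separate in both genotypes and the rise was 4.01-fold relative and 2.34-fold in FPM in wild type. Cxcr4, for another chemokine receptor, was lower (−1.09 and −0.88). Markers of other cell types were few among the boundary regions. Of 13 B cell genes 3 had a region, and Cr2, the complement receptor gene, and Ebf1, a B lineage factor gene, were higher on both scales. Cr2 had 2.28, 2.86, 2.55 and 2.85 FPM in WT-0h and 5.88, 4.90, 5.40 and 4.43 in WT-72h, and Ebf1 had 1.38, 1.41, 1.70 and 1.74 and then 3.28, 3.16, 3.71 and 2.61. Cd79a with Arhgef1 was lower (−0.58). Whether cells of another type took part in these rises was not tested. Of 3 myeloid regions 1 was higher, Cebpa with 0.45, and of 2 CD8 and NK regions Cd8b1 was lower with −1.47.

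**Figure D4:**
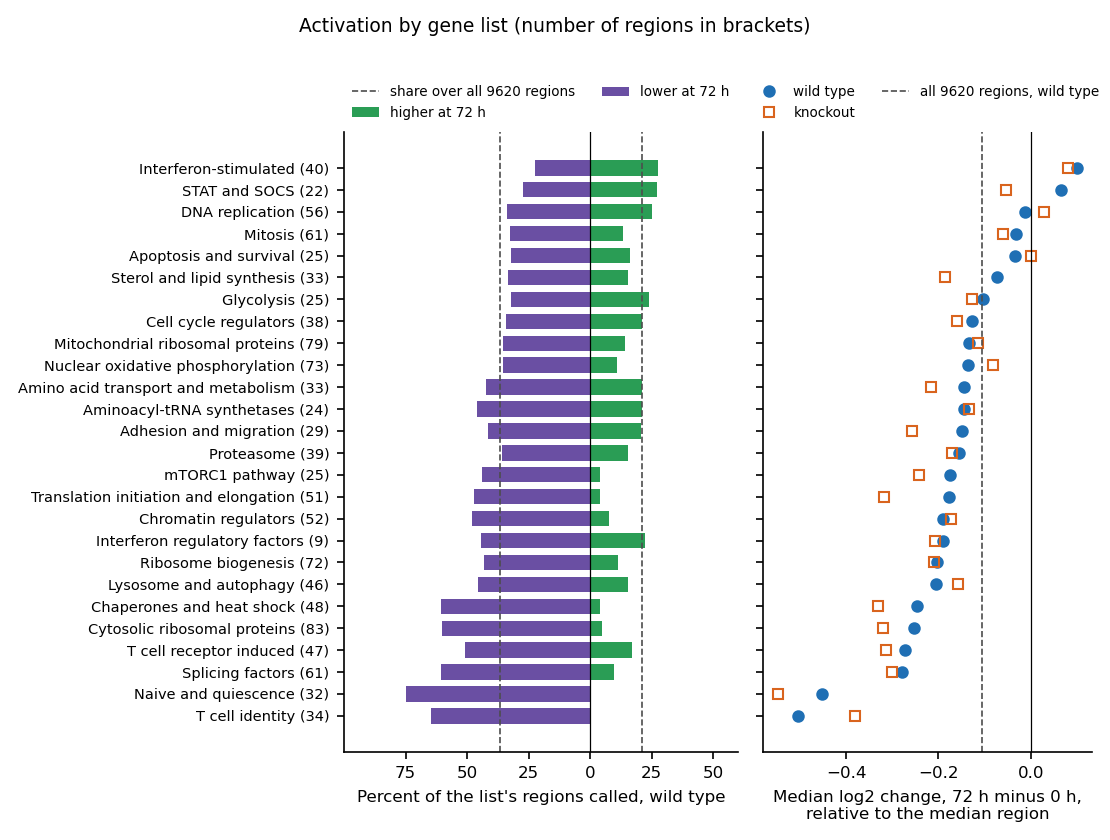
Gene lists with at least 5 boundary regions, sorted by their median change in wild type. Left, percent of the regions of each list called higher (green) or lower (purple) at 72 h in wild type relative to the median region, with dashed lines at 20.9% and 36.6%, the shares over all 9620 regions; right, median log2 change in wild type and knockout, from −0.50 for T cell identity to 0.10 for interferon-stimulated genes in wild type.

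The second comparison asked whether loss of Irf5 changed these regions. In FPM limma called 0 of the 9620 at 0 h (0% over all constitutive regions) and 0 at 72 h (0% over all), with 3411 and 222 at an unadjusted p under 0.05. The median differences, KO minus WT, were −0.51 at 0 h and −0.20 at 72 h. These counts rest on single libraries. Without KO-0h replicate 4, 8367 regions were called at 0 h, and without KO-0h replicate 3 or WT-0h replicate 1 there was 1. At 72 h 249 were called without KO-0h replicate 3 and 1 without KO-0h replicate 4. Quantile normalization gave 1 call at 0 h (0.00472% over all) and 20 at 72 h (0.496% higher and 0.335% lower over all).

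Relative to the median region 1 region was called at 0 h (0.0331% over all) and 87 at 72 h (1.2% over all), or 0.904% of the boundary regions, with 969 and 1294 at an unadjusted p under 0.05. Of the 87, 86 were higher in knockout (0.940% over all) and 1, at Cyc1, lower (0.264% over all). Quantile normalization called 17 higher and 3 lower, and 16 of the 87 passed under it too. The count was 2 on the authors' fold enrichment, 11 with a pseudocount of 0.5 and 15 with the 2 groups only. The absolute log2 differences of the 87 had a median of 0.31. Most of the 87 had a mean pileup above 4.54 FPM, the median of all boundary regions, though Bmp2k was at 1.76. Sap130, Pja2, Qdpr and Zbtb20, among the 5 highest boundary regions, were called. After quantile normalization limma did not call them (adjusted p between 0.53 and 0.86). The part of the level in the genotype calls was not tested. The share called among boundary regions was below that over all constitutive regions. The count at 72 h moved with single libraries. It was 51, 255, 13, 52 and 13 without KO-0h replicate 1 and KO-72h replicates 1, 2, 3 and 4, and 156, 5, 51 and 23 without WT-72h replicates 1, 2, 3 and 4. With the replicate number as a block it was 55. Of the 87 regions 76 had the same sign at 0 h, against 55.03% of all boundary regions. Regions of like level were not compared, so these shares do not show that the genotypes differed alike at both times. In every fit that left out a library, 5 of the 87 were called. Among the 5, Ywhaq, for a 14-3-3 protein, was higher by 0.40, Zfp189, for a zinc finger protein, by 0.40 and Rnf122, for a ring finger protein, by 0.50, with quantile normalization calling these too. At 0 h their differences were 0.05, 0.06 and −0.06. Bmp2k, a kinase gene, had the second largest difference of the 87 (0.70), in a region 132 bp from its end with 2.51, 1.42, 2.11 and 1.56 FPM in WT-72h and 2.36, 3.15, 2.60 and 2.199 in KO-72h, which overlap. Cyc1, for cytochrome c1 of the respiratory chain, had 2.15, 2.76, 1.99 and 2.02 in WT-72h and 1.38, 1.41, 1.15 and 1.12 in KO-72h, a relative difference of −0.57 (adjusted p = 0.0273), while at 0 h it was 0.12.

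Pgk1 was the region that separated the genotypes at both times. Pgk1 lies on the X chromosome and encodes phosphoglycerate kinase 1 of glycolysis. Its region (chrX:106186529-106188085) had 8.17, 7.03, 10.8 and 10.02 FPM in WT-0h and 24.2, 9.98 and 26.0 in KO-0h. At 72 h it had 6.45, 5.84, 5.70 and 4.39 in wild type and 11.9, 12.3, 13.4 and 12.8 in knockout. In FPM the groups overlapped at 0 h through KO-0h replicate 3 and were separate at 72 h. Divided by the median region of the same library, every knockout library was between 5.35 and 6.29 and every wild-type library between 1.59 and 2.41. The relative log2 difference, KO minus WT, was 1.601 at 0 h (adjusted p = 9.41e-19) and 1.42 ± 0.08 (SE) at 72 h (adjusted p = 5.83e-18), and it was 1.499 at 0 h in FPM without KO-0h replicate 3. In FPM with all libraries the differences did not pass (adjusted p = 0.126 at 0 h and 0.0655 at 72 h).

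Among the 9620 boundary regions of a library, Pgk1 ranked between 6 and 40 by pileup in knockout and between 1358 and 4207 in wild type. Activation itself changed it little on the relative scale (0.10 in wild type and −0.08 in knockout, neither called). The highest peak was 476 to 679 bp wide in knockout and 746 to 1503 bp in wild type, and its summit stayed within 51 bp over all libraries. The printed 250 bases before its start hold a GC box and a CCAAT box. As background, the Pgk1 promoter is a common part of gene targeting cassettes, and reads from such an inserted copy would map to Pgk1. The sources used here do not say whether this Irf5 allele carries one, and it was not tested. The 276 boundary regions on X had median differences of 0.06 at 0 h and 0.07 at 72 h, and the 9344 others had 0.03 and 0.03.

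**Figure D5:**
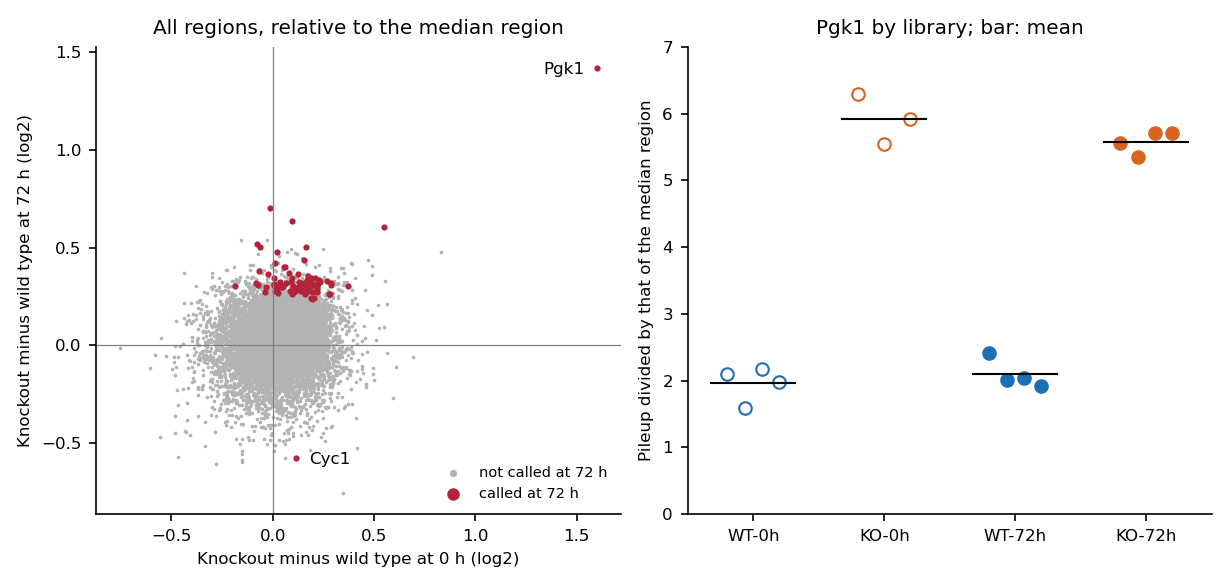
Left, log2 difference of each of the 9620 boundary regions between knockout and wild type, relative to the median region, at 0 h (horizontal) and 72 h (vertical), with the 87 regions called at 72 h in red. Right, the pileup at Pgk1 divided by that of the median region in each library, with bars for group means: all knockout libraries lie at 5.35 or above and all wild-type libraries at 2.41 or below.

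The region at Irf5 itself (chr6:29526327-29528321) was called in all knockout libraries too. It had 2.19, 2.103, 2.22 and 2.53 FPM in WT-0h and 1.69, 0.918 and 2.53 in KO-0h, and at 72 h 1.38, 1.78, 1.11 and 1.28 in wild type and 1.38, 1.05, 1.07 and 1.03 in knockout. The genotypes overlapped at both times, and the relative differences were 0.03 at 0 h and −0.05 at 72 h. A promoter outside the deleted part checks no genotype label, and the deleted part is unknown here. Of 37 boundary regions within 5 Mb of Irf5, 0 were called for genotype on either scale (4 at 0 h and 5 at 72 h had an unadjusted relative p under 0.05), with median differences of 0.04 and 0.03.

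The rule that chose the regions has 2 thresholds. Near gene boundaries 722 further regions were called in 14 of the 15 libraries, with a median pileup of 1.19 FPM against 4.54 for those called in all, and 554 of the 722 lacked a peak in KO-0h replicate 3. Of the regions called in every library, the 99 with a boundary 900 to 1000 bp away had a median of 3.23 FPM and the 96 at 1001 to 1100 bp one of 3.30, with median relative changes in wild type of 0.00 and 0.01.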

How the data were processed

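ATAC-seq was deposited as 15 per-library MACS2 peak lists, with 8 other lists not used here. The submitters' processing notes name the tools Trim Galore 0.5.0, Bowtie2 2.2.9, MACS2 and HOMER 4.10.4, and the build mm10. Per the file headers, MACS2 2.1.1.20160309 called read pairs with no control, 1 fragment kept per position and a q cutoff of 0.05. The pileup is the authors' unscaled fragment coverage at the summit, as deposited. The fold enrichment in the deposited lists is the authors' ratio of that pileup to the local background.

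The lists were merged (overlap of 1 bp or more), and the highest pileup of each library in each region was scaled to 1000000 fragments after filtering (FPM). Boundaries of 21896 protein-coding genes came from the RefSeq table given for GRCm38.p6, whose strand was missing for some genes. The log2 values of all 21176 regions called in all 15 libraries were fitted in limma 3.58.1 (R 4.3.3) with 4 groups and all libraries, with Benjamini-Hochberg adjustment over all regions. The 5 contrasts were activation in each genotype, genotype at each time, and their interaction. The same fit was run on values centred on the median region and after quantile normalization. Named regions were, for each contrast and direction, up to 10 with the largest relative change that passed in FPM and relative, did not overlap between groups and had summits within 500 bp, then up to 4 for each gene list by size of change, the 5 highest and the 5 least variable. Other genes are named from the lists after their values were seen. Some items are not reported here. The members and lists were chosen with earlier results of these data known. On simulated data for activation in wild type, relative scale, 21176 regions, the fit recovered 47 of 100 regions changed by 0.5 and 96 of 100 changed by 1 on the log2 scale.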

Additional observations from a re-analysis of the deposited data

Results flagged for a closer look

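In 10 of 87 groups of values examined, 1 library stood far from the others of its group (chance alone gives about 1 in 20). The KO-0h group, with fewer libraries than the other groups, was not examined in this way, so none of its libraries could be flagged. Values are pileups in FPM.

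WT-72h replicate 4 was lowest at Rabl2 (3.07, the others between 4.06 and 4.21). KO-72h replicate 1 was lowest at Rabl2 (2.94, the others between 3.88 and 3.93) and at Hk2 (5.21, the others between 6.14 and 6.22), and highest at Irf5 (1.38, the others between 1.03 and 1.07). KO-72h replicate 4 was highest at Sit1 (1.403, the others between 1.01 and 1.07) and lowest at Ifit1 (1.59, the others between 1.87 and 1.92). KO-72h replicate 3 was highest at Tyms (2.48, the others between 1.497 and 1.61). WT-72h replicate 3 was highest at the Tnfaip3 end (0.766, the others between 0.608 and 0.622). WT-0h replicate 4 was highest at Nr4a2 (2.45, the others between 1.41 and 1.56), and WT-0h replicate 2 at the Bmp2k end (1.897, the others between 1.19 and 1.29). The activation groups did not overlap at Rabl2, Hk2, Sit1, Ifit1, Tnfaip3 and Nr4a2 with these libraries included. At Rabl2, Sit1 and the Tnfaip3 end the rule for naming required this, so that it is no result there. Of all constitutive regions 5.56% in wild type and 6.91% in knockout had every 72 h library above every 0 h library. Every 72 h library was below at 66.7% and 19.6%.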

How the results depend on the processing

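Counts are boundary regions called by limma. In FPM, wild-type activation called 187 higher and 7308 lower. The higher count was 2011 centred on the median region, 2313 after quantile normalization, 344 with array weights and 293 with the 2 groups only, and the lower count 3524 centred, 2519 quantile and 3771 on the authors' fold enrichment. In knockout (322 higher, 4172 lower) the higher count was 2082 centred, 2283 quantile, 195 on fold enrichment, 137 with array weights and 170 with 2 groups. The lower count was 2501 quantile, 8024 with array weights and 1188 with 2 groups. For genotype at 0 h (0 called) there was 1 centred, 1 quantile and 1 with array weights. At 72 h (0 called) there were 87 centred, 20 quantile, 3405 with array weights, 334 with 2 groups and 1 with FPM divided by fragment length. Array weights in FPM did not converge. On the relative scale fold enrichment gave 963 higher and 1071 lower in wild type and 882 and 1108 in knockout, and genotype at 0 h (1 called) gave 18 with 2 groups, 10 with array weights and 0 on autosomes only. Genotype at 72 h (87 called) gave 15 with 2 groups, 34 with array weights, 2 on fold enrichment, 11 with a pseudocount of 0.5 and 20 after quantile normalization. Except where a setting itself drops samples or regions, the cause was not tested.

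Leaving out 1 library gave, in FPM, 132 to 309 higher and 6404 to 8245 lower in wild type, 234 to 483 and 1534 to 8182 in knockout, 0 to 8367 for genotype at 0 h, 0 to 249 at 72 h and 0 to 0 for the interaction. On the relative scale it gave 1843 to 2033 and 3169 to 3579 in wild type, 1822 to 2084 and 2985 to 3482 in knockout, 1 to 4 for genotype at 0 h, 5 to 255 at 72 h and 0 to 0 for the interaction. Genotype at 0 h gave 2 without KO-0h replicate 4, WT-0h replicate 4 or WT-72h replicate 4, 3 without WT-72h replicate 2 and 4 without KO-72h replicate 1. Genotype at 72 h gave 51 without KO-0h replicate 1 or WT-72h replicate 3, 255, 13, 52 and 13 without KO-72h replicates 1 to 4, and 156, 5 and 23 without WT-72h replicates 1, 2 and 4.

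With the replicate number as a block, knockout activation in FPM called 2264 lower and genotype at 72 h on the relative scale 55. Same-numbered libraries correlated between −0.17 and 0.23 in their deviations from group means, so the numbers were not taken to pair them.

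For named regions 2714 of the values under other settings kept direction and call, 62 passed and 45 failed the test instead, and 15 changed sign. These were, in wild type, the Tnfaip3 end (0.12 on fold enrichment), the Per1 end (0.64 centred, 0.68 on fold enrichment), Zbtb20 (0.046) and Qdpr (0.072) on fold enrichment, Pja2 (0.041 quantile), Irf5 (0.053 centred, 0.12 on fold enrichment), the Lars2 end (0.73 centred, 0.81 quantile) and Pgk1 (0.10 centred, 0.29 quantile). In knockout they were Per1 (0.50 on fold enrichment) and Lars2 (0.33 centred, 0.37 quantile). With a median of 64 to 190 fragments at the summit, low regions carry the larger counting error, and a region that closed entirely in any library could not be a member.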
